A study of Mus musculus with 10 samples.

Results

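The axon guidance ligands and receptors described here are 62 genes of the 23238 symbols listed in all 10 libraries. They were chosen by a rule on gene symbols that uses no measured value but was set with earlier results of these data known. The list holds class 3 to 7 semaphorins (19 genes), plexins (9), ephrins (7), Eph receptors (13), Robo receptors (4), Slit ligands (3), netrins (4) and Unc5 receptors (3). Sema3g, Efnb2, Ephb4 and Unc5b were left out by name. RNA came from endothelial cells purified from gliomas that had grown in the brains of C57BL/6 mice injected with cells of a mouse glioma line. There were 2 Sox7 ECKO libraries with 2 Sox7 control libraries and 3 Sox17 ECKO libraries with 3 Sox17 control libraries. ECKO libraries are labelled Sox7-deficient or Sox17-deficient, and their mice carried the Cdh5(BAC)-CreERT2 driver, a recombinase active in endothelium once tamoxifen is given, on a Sox7 fl/fl or Sox17 fl/fl background. Tamoxifen, at 20 mg/kg, is stated for the experimental mice, and neither the alleles nor the treatment of the controls is spelled out. Tamoxifen or recombinase activity and the loss of the gene therefore cannot be told apart. Ages, sexes and the number of mice behind a library are not given in the sources used here.

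Axon guidance molecules steer growing nerve fibres by attraction or repulsion, and blood vessels use many of the same ligands and receptors to guide sprouts and to set their permeability. Semaphorins signal through plexins, secreted class 3 semaphorins mostly with neuropilins as co-receptors; ephrins on one cell bind Eph receptors on the next; Slits bind Robo receptors; and netrins bind Unc5 receptors and the receptors DCC and neogenin. Plxnd1 and Robo4 are known for their expression in endothelium. Sox7 and Sox17 belong to the SoxF group of transcription factors, are made by endothelial cells and bind DNA through an HMG box.

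Each value is a count of 3′ end tags. Such counts do not grow with transcript length, so levels are given as CPM, counts-per-million scaled for library composition (TMM), and compared between genes on that scale. Total counts were 6781972 to 9699934 in the Sox7 arm and 2082305 to 35068802 in the Sox17 arm, with the fewest in Sox17 control 1. A floor of 3 counts corresponded to 0.0847 to 1.36 CPM and covers counting error only. Sox7 was read by 4 and 5 counts in Sox7 ECKO 1 and 2, against 193 and 64 counts in Sox7 control 1 and 2. Sox17 was read at 1.93, 1.07 and 6.70 CPM in the Sox17 ECKO libraries, against 174, 90.1 and 93.4 CPM in the Sox17 control libraries, and even this difference had an edgeR adjusted p of 0.226. Sums were 106 to 322 CPM over 11 glia and glioma markers, 2.72 to 69.8 CPM over 8 neuron markers and 2.95 to 73.2 CPM over 5 fibroblast markers. All 10 endothelial markers (Pecam1, Cdh5, Tek, Tie1, Kdr, Flt1, Emcn, Esam, Cldn5 and Erg) had counts in every library. They summed to 6168 and 9140.1 CPM in Sox7 ECKO 1 and 2, against 10846 and 9031 CPM in Sox7 control 1 and 2, and to 7145, 12610.2 and 10041 CPM in the Sox17 ECKO libraries, against 10269, 12274 and 10155 CPM in the Sox17 control libraries. Summed over 13 macrophage and microglia markers, Sox7 ECKO 1 had 13897 CPM, against 814 CPM in its control, and stood apart from the other 9 libraries, which had 18.2 to 814 CPM. Counts over the guidance genes in the Sox7 arm are given with and without it where that is possible.

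Both Sox proteins are known to bind sequences around a core written ACAAT, and promoters of 3 genes are shown because they span the pattern of that core among the guidance genes: Robo4, an endothelial receptor whose level was nearly equal in Sox7 ECKO and Sox7 control libraries, has 2 copies; Ephb1, read in neither Sox7 ECKO library, has 1; and Sema3c, the member with the smallest p in the Sox17 comparison, has none. Each runs 5′ to 3′ on the gene's strand from 250 bases before to 50 bases after its RefSeq start on GRCm38.p6, and capitals mark ACAAT or its reverse complement ATTGT. The windows are chr9:37401722-37402021 (plus strand) for Robo4, chr9:102354644-102354943 (minus strand) for Ephb1 and chr5:17574566-17574865 (plus strand) for Sema3c.
Robo4: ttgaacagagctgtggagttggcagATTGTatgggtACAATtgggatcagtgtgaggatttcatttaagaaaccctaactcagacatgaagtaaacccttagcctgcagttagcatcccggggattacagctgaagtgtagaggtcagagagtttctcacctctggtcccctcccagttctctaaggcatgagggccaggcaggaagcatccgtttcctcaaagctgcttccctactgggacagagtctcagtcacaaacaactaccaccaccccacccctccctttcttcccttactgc
Ephb1: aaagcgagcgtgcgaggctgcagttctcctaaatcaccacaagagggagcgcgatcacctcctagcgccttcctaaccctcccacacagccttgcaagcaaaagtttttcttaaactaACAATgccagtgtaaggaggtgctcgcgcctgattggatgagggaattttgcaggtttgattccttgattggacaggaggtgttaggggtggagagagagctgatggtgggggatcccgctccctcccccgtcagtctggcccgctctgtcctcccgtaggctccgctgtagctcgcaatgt
Sema3c: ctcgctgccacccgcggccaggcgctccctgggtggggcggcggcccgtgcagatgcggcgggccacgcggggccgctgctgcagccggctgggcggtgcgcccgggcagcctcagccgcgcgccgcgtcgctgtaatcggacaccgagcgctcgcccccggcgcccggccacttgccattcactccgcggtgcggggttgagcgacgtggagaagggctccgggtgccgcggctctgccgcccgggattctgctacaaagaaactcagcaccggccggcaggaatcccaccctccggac

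The copies in Robo4 begin at −225 and −214 from the start, on opposite strands, and that in Ephb1 at −132. Promoters were matched for 53 of the 62 genes, and 12 of the 53 (22.6%) held the core on either strand, against 31.6% of 27025 promoters counted once per gene. Of the 32 matched genes that entered the test, 8 (25%) held it. These are matches of letters in a short window, and no binding was measured. The Sema3c window lies wholly inside the gene's GENCODE span, which starts at chr5:17574281. Bases before that start were therefore not searched.

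The guidance genes differed widely in level. Mean CPM over the 10 libraries was 10 or more for 18 genes and below 1 for 24. Counts were present in all 10 libraries for 18 genes and in none for Epha6, Epha8 and Epha10, and the filter on low counts kept 38 of the 62 for testing: 13 semaphorins, 8 plexins, 5 ephrins, 5 Eph receptors, 2 Robo receptors, 1 Slit, 2 netrins and 2 Unc5 receptors. The other 24 were close to background: 19 of them had no count in at least 8 libraries, and apart from Sema4a none went above 10.9 CPM in any library, a value reached by Robo1 in Sox17 ECKO 1. The order of means was led by Sema7a (563 CPM), Sema4c (380.3 CPM), Plxnd1 (335 CPM), Plxna2 (307 CPM), Robo4 (221 CPM) and Sema6a (149 CPM). These 6 genes made up 66.9% of the summed CPM of all guidance genes in Sox7 ECKO 1, the lowest share, and 80.5% in Sox17 ECKO 3, the highest. The libraries of neighbours in this order overlapped, as the plot of levels by library shows.

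**Figure D1:**
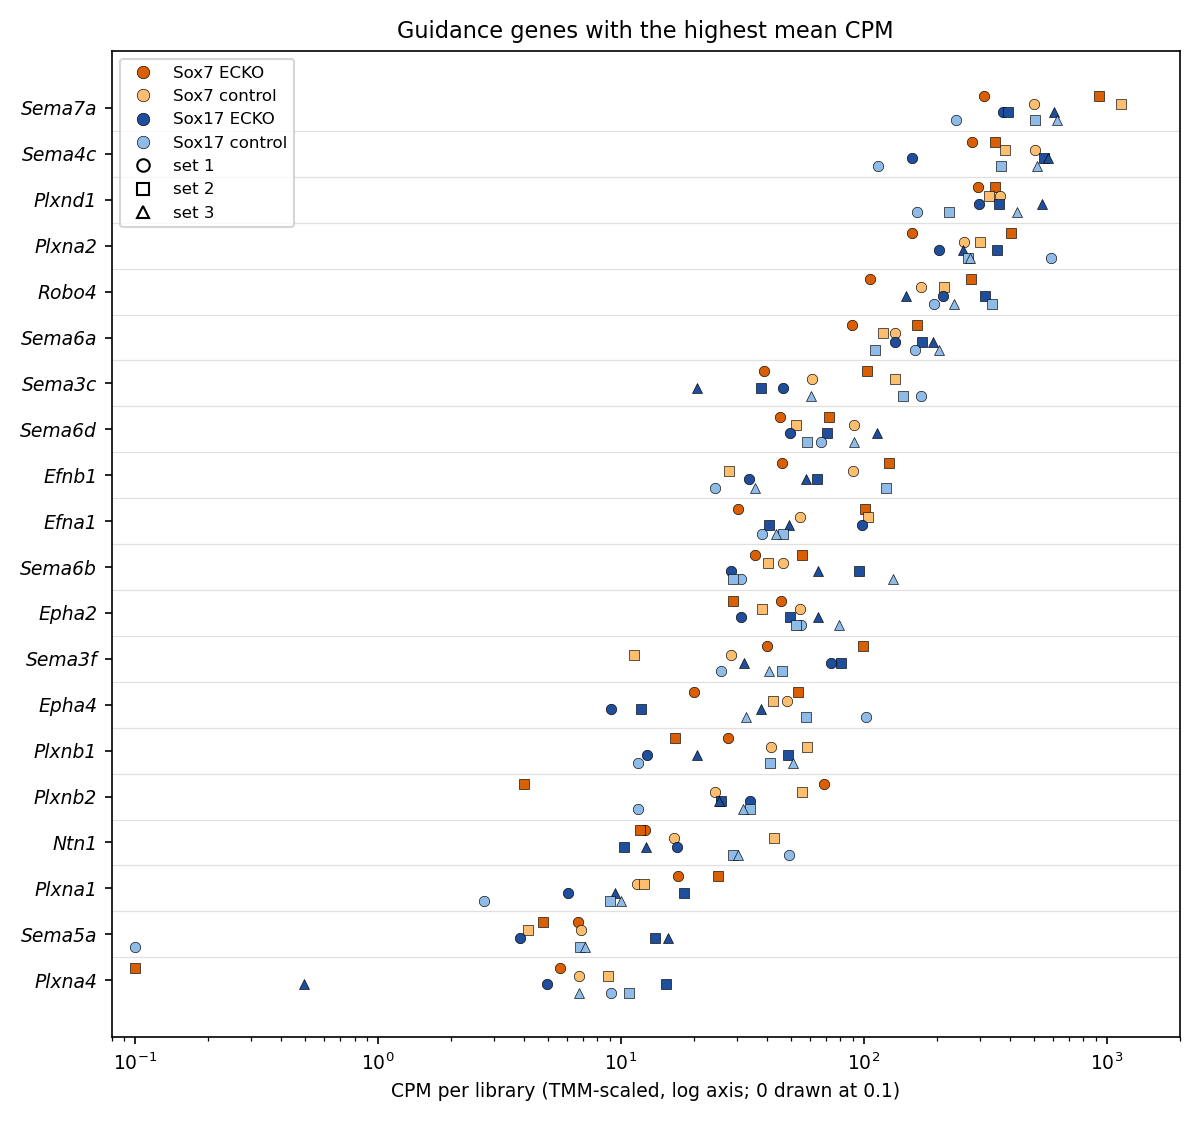
CPM in each library (log axis, values of 0 drawn at 0.1) for the 20 guidance genes with the highest mean, in descending order; colours give the group and marker shapes the set number. Sema7a lay between 240.1 and 1143 CPM, and the libraries of the 4 groups intermingle in most rows.

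Steadiness across libraries also differed. The highest library was 2.28 times the lowest for Sema6a, 2.51 times for Sema6d, 2.72 times for Epha2 and 3.17 times for Robo4. At the other end it was 8.37 times for Sema3c, 8.76 times for Sema3f, 11.3 times for Epha4 and 17.2 times for Plxnb2. Semaphorins summed to between 814 and 1891 CPM per library and plexins to between 560 and 852 CPM, while Slits summed to at most 16.3 CPM and Unc5 receptors without Unc5b to at most 15.0 CPM.

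No guidance gene passed an adjusted p of 0.05 in the Sox7 comparison, the Sox17 comparison or the difference between them, by edgeR's quasi-likelihood test. The background was the same, 0 of 13040 genes (0%) in each. At an unadjusted p below 0.05 there were 3 guidance genes of 38 (7.89%) in the Sox7 comparison, Sema3f and Plxnc1 higher and Ephb1 lower in ECKO, against 1.5% of all genes tested. Leaving out Sox7 ECKO 1 leaves a single Sox7 ECKO library, so that fit is given by its log2 differences only. There Sema3f was 2.29, and Plxnc1, at 7.92 in the full fit, turned to −2.72. Plxnb2 moved from −0.15 to −3.35. Ephb1 had no count in either Sox7 ECKO library. In the Sox17 comparison, with all 10 libraries, 5 of 38 (13.2%) were at an unadjusted p below 0.05, against 3.52% of all genes. They were Sema3c, Epha4, Plxna3, Sema4d and Ntn1, all lower in ECKO. Among all 459 genes at that level in the Sox17 comparison, 361 were lower in ECKO. The difference between the arms gave Sema4d, Plxna3 and Plxnc1 (7.89% of 38, against 2.87%), each of which had a count of 0 in several libraries. Without Sox7 ECKO 1 the fitted difference between the arms was −1.57 for Plxnc1, against 9.05 in the full fit. Sema4d then had no count in any ECKO library, and Plxna3 had none in Sox17 ECKO. With the set number as a block, 1 gene passed in the Sox7 comparison, 6 in the Sox17 comparison and 3 in the difference, none of them a guidance gene. With Sox7 ECKO 1 left out no guidance gene passed either, in a fit with a single Sox7 ECKO library. In the fit of all 10 libraries without a block, the adjusted p of each tested guidance gene was 1, or at least 0.999986 in the difference between the arms, and the differences below are given as values with their standard errors (SE) and unadjusted p.

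As a whole the list sat near 0. The fitted log2 difference was below 0 for 21 of 38 guidance genes in the Sox7 comparison, 55.3% against 47.5% of all genes, and for 19 of 38 in the Sox17 comparison, 50% against 47.1%. In the difference between the arms it was below 0 for 21 of 38, 55.3% against 49.4%. The median log2 difference was −0.11 against 0.04 for all genes in the Sox7 comparison, and −0.02 against 0.05 in the Sox17 comparison. Without Sox7 ECKO 1 the Sox7 median was −0.39, against −0.26 for all genes, and 58.1% of both the guidance genes and all genes were below 0. In Sox7 ECKO libraries 4 guidance genes (10.5%, background 12.7%) lay above both Sox7 control libraries: Plxna1, Sema3f, Sema4b and Unc5c. A further 9 (23.7%, background 12.8%) lay below both: Efna5, Efnb3, Epha7, Ephb1, Ntn1, Plxna4, Plxnb1, Sema4c and Sema6c. Of these, Efna5, Efnb3, Epha7, Ephb1, Plxna4 and Sema6c had a count of 0 in Sox7 ECKO 2. For Efna5 the 0.0922 CPM in Sox7 control 2 is below the averaged ECKO floor of 0.416 CPM. Among those above, Unc5c had a count of 0 in Sox7 control 2. How many of all genes rest on such counts of 0 was not counted. Sox7 ECKO 2 alone lay above both controls for 12 of the 38 (31.6%, background 29.5%) and below both for 12 (31.6%, background 33.8%). In the Sox17 arm none of the 38 had every ECKO library above every control library (background 4.13%), and Ntn1, Plxna3 and Sema3c (7.89%, background 4.23%) had every ECKO library below. For Plxna3 this rests on counts of 0. Its 0.310 CPM in Sox17 control 3 is below the floor of 3 counts in Sox17 ECKO 1, 0.413 CPM. Within sets, 13 guidance genes were lower in ECKO in both Sox7 sets (34.2%, background 22.5%), among them those named above at 0 in Sox7 ECKO 2. Another 5 were higher in ECKO in both (13.2%, background 22.3%). These counts need Sox7 ECKO 1, where the endothelial markers summed to 6168 CPM, against 10846 CPM in its control; the part of that gap in them was not tested. In the Sox17 arm 4 were lower in all 3 sets (10.5%, background 11.5%) and 4 were higher in all 3 (10.5%, background 13.1%). Ntn1 and Sema3c, together with Epha2, were the 3 genes lower in ECKO in every set of both arms. The share of all genes tested with that pattern was not counted, so no excess can be read from it.

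**Figure D2:**
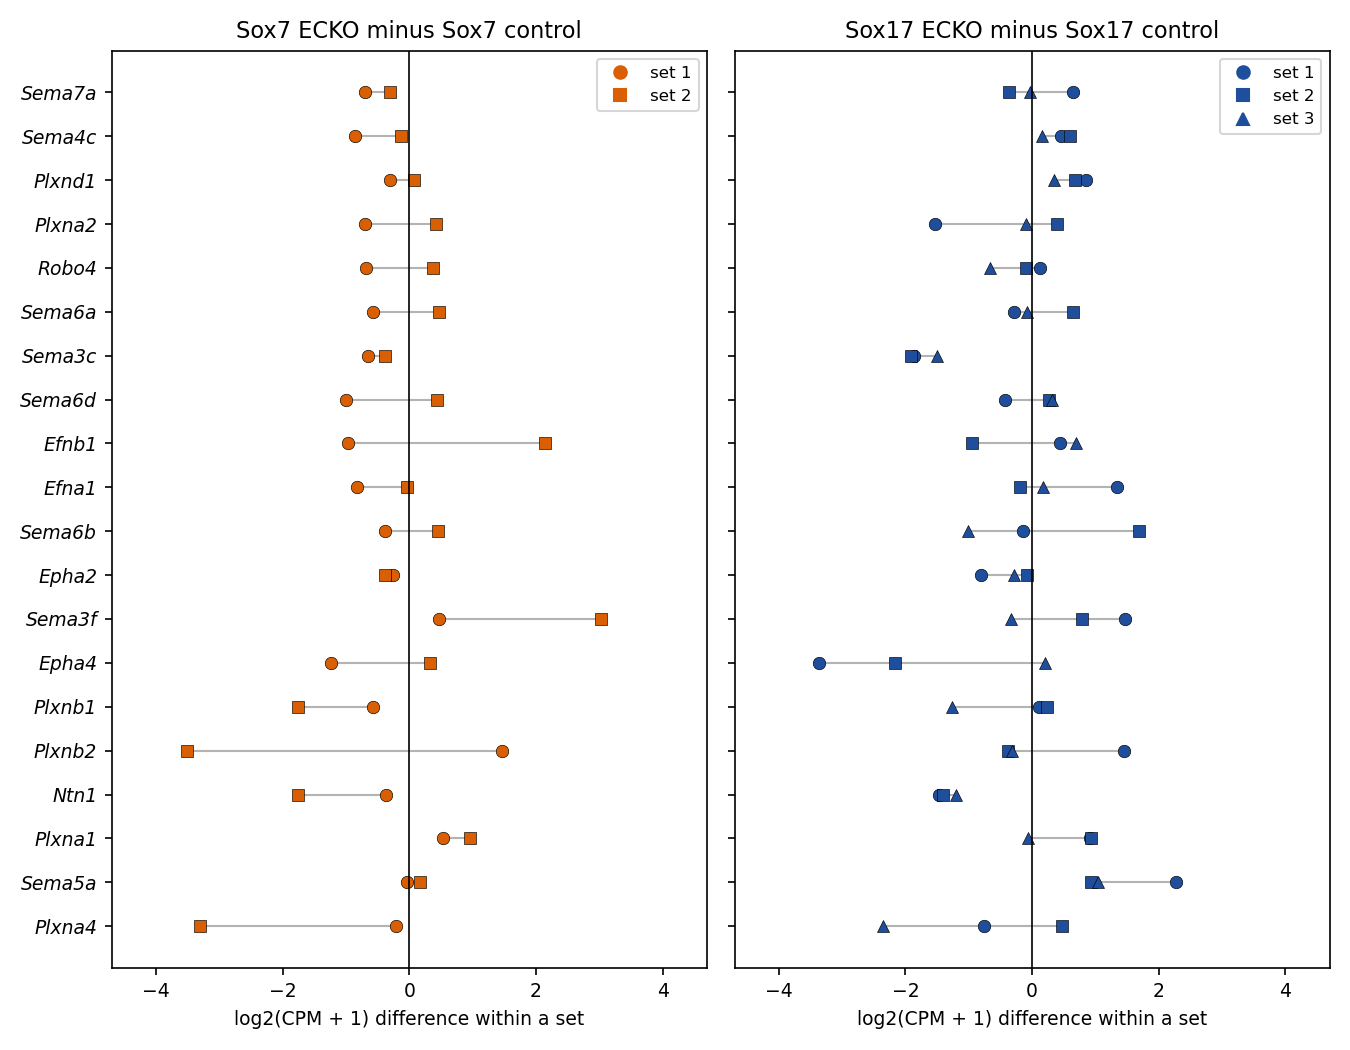
Difference of log2(CPM + 1), ECKO minus control of the same set, for the 20 guidance genes with the highest mean CPM; left panel Sox7 (2 sets), right panel Sox17 (3 sets), with a line joining the sets of a gene. Sema3c and Ntn1 lie below 0 in every set, and Sema3c is between −1.91 and −1.51 in the Sox17 sets.

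Among the secreted semaphorins, Sema3c (chr5:17574281-17730268, plus strand, GRCm38), a class 3 ligand of neuropilin and plexin complexes, had the clearest difference. It was read at 46.4, 37.9 and 20.6 CPM in Sox17 ECKO 1, 2 and 3, against 172, 145 and 60.4 CPM in Sox17 control 1, 2 and 3. All 3 ECKO libraries were lower than the lowest control. The means were 35.0 ± 13.1 CPM in Sox17 ECKO and 126 ± 58.4 CPM in Sox17 control (SD, n = 3 each), a log2 difference of −1.85 (SE 0.53) with an edgeR unadjusted p of 0.00275 and an adjusted p of 1. Over the libraries left out in turn the log2 difference stayed between −2.18 and −1.57. With the set number as a block it was −1.79, with an adjusted p of 0.196 by edgeR. Sox7 libraries had Sema3c at 38.8 and 103 CPM in ECKO, against 61.4 and 134 CPM in control, and the groups overlapped (log2 difference −0.46, SE 0.63). That value was 0.05 without Sox7 ECKO 1 and 0.20 without Sox7 control 2. The difference between the arms was 1.38 (SE 0.82, unadjusted p = 0.109 by edgeR), so a difference in response was not shown. With a single Sox7 ECKO library left, it was 1.92 without Sox7 ECKO 1 and 0.51 without Sox7 ECKO 2.

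Pericyte markers moved in part with the Sox17 result. Summed over 7 of them (Pdgfrb, Rgs5, Cspg4, Kcnj8, Abcc9, Notch3 and Anpep), Sox17 ECKO 1, 2 and 3 had 190.2, 208 and 209 CPM, against 818, 609 and 252 CPM in their controls. Among the 7, Rgs5 had the same pattern as Sema3c, with 92.6, 58.6 and 48.5 CPM in Sox17 ECKO, against 640.3, 208 and 115 CPM in Sox17 control, every ECKO library below every control (log2 difference −2.27, SE 0.60, edgeR adjusted p = 1). Cspg4 was lower in ECKO in all 3 sets, with 24.8, 18.3 and 0.372 CPM in ECKO, against 37.7, 38.6 and 12.8 CPM in control. In set 3 Pdgfrb, Kcnj8, Abcc9 and Notch3 were higher in ECKO, which brought that set's sums close together. The part of pericyte RNA in the Sema3c values was not tested. In bulk RNA, fewer cells of a type and less RNA per cell cannot be told apart.

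Sema3f (chr9:107681500-107710475, minus strand), a secreted ligand that signals through neuropilin 2 and is known to restrain vessel growth, went the other way in the Sox7 arm. It was read at 39.8 and 99.3 CPM in Sox7 ECKO, against 28.4 and 11.3 CPM in Sox7 control. Both ECKO libraries were above both controls, but most of the gap lay in set 2, where the log2(CPM + 1) difference was 3.02, against 0.48 in set 1. The fitted log2 difference was 1.81 (SE 0.69, edgeR unadjusted p = 0.0169) and ranged from 1.00 to 2.60 with a library left out. Sox17 ECKO libraries had 73.3, 80.4 and 32.0 CPM of Sema3f, against 25.9, 46.1 and 40.7 CPM in Sox17 control. Sets 1 and 2 were higher in ECKO and set 3 was lower (log2 difference 0.72, SE 0.55). The difference between the arms was 1.09 (SE 0.87).

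The class 3 ligands Sema3a and Sema3e, singled out after their values were seen, were not read in every library. Sema3e, the ligand that binds plexin D1 directly, was read at 18.6, 3.67 and 0 CPM in Sox17 ECKO, against 0, 0 and 0.991 CPM in Sox17 control. Sema3a, a repellent of nerve fibres, was read at 3.99, 2.91 and 9.93 CPM in Sox17 ECKO, against 0, 0 and 6.75 CPM in Sox17 control. Sema3a was higher in ECKO in all 3 sets, yet the groups overlapped and its log2 difference of 1.28 had an SE of 2.22.

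**Figure D3:**
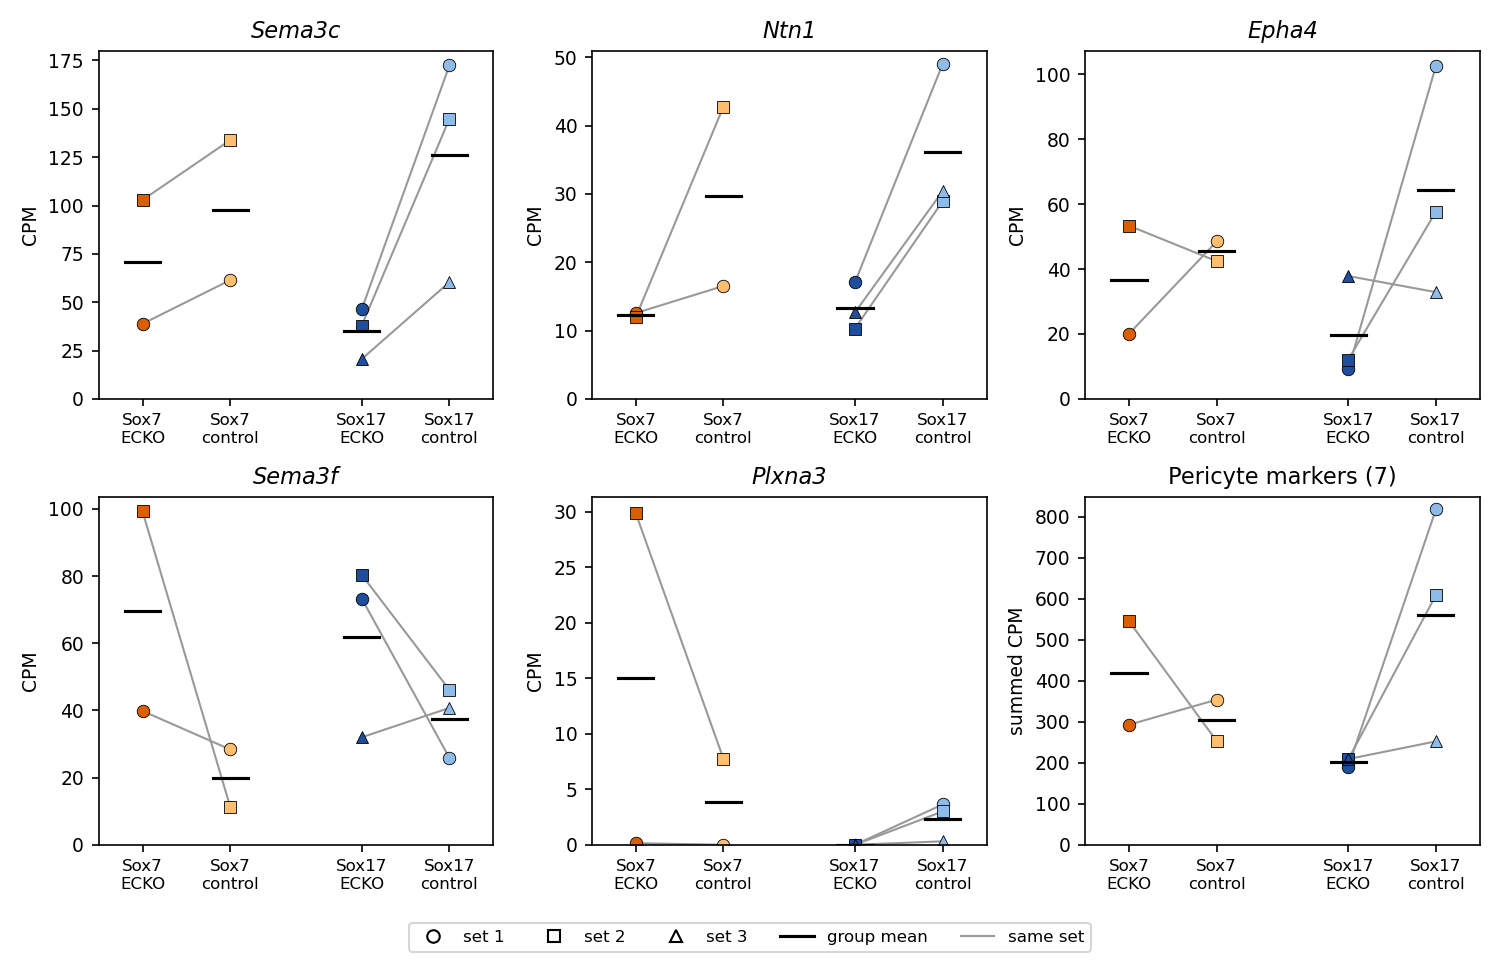
CPM in each library, ECKO left of its control, for Sema3c, Ntn1, Epha4, Sema3f and Plxna3 and for the sum of 7 pericyte markers; grey lines join libraries of a set and black bars are group means. Sema3c and Ntn1 were lower in every Sox17 ECKO library than in any Sox17 control library. Epha4 was 37.8 CPM in Sox17 ECKO 3, against 32.9 CPM in its control. Plxna3 was at 0 in every Sox17 ECKO library. Its 0.310 CPM in Sox17 control 3 is below the floor of 3 counts in Sox17 ECKO 1, 0.413 CPM.

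The membrane-bound semaphorins held the highest levels and overlapped between groups in the Sox17 arm. Sema7a, a GPI-anchored semaphorin that binds plexin C1 and integrins, was read at 312 and 929.7 CPM in Sox7 ECKO, against 504 and 1143 CPM in Sox7 control. The 2 sets differed more from each other than ECKO from control (log2 difference −0.41, SE 0.59). Sema7a averaged 458 ± 129 CPM in Sox17 ECKO and 456 ± 196 CPM in Sox17 control (SD, n = 3 each). Sema4c, a ligand of plexin B2, was read at 279 and 347 CPM in Sox7 ECKO, against 509 and 381 CPM in Sox7 control. Both ECKO libraries lay below both controls, with a log2 difference of −0.51 (SE 0.64). Sema4c stood at 157, 555 and 575 CPM in Sox17 ECKO, against 114, 368 and 518 CPM in Sox17 control, higher in ECKO in each set though the groups overlapped (0.36, SE 0.52).

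Sema6a and Sema6d, transmembrane class 6 ligands of A-type plexins, varied least from library to library. Sema6a had 89.2 and 166 CPM in Sox7 ECKO, against 134 and 119.7 CPM in Sox7 control, and 134, 174 and 192 CPM in Sox17 ECKO, against 163, 111 and 204 CPM in Sox17 control. Its log2 differences were 0.01 (SE 0.48) and 0.07 (SE 0.39). Sema6d had 45.0 and 72.1 CPM in Sox7 ECKO, against 90.7 and 52.8 CPM in Sox7 control, and 49.5, 70.3 and 113 CPM in Sox17 ECKO, against 66.7, 58.4 and 90.8 CPM in Sox17 control. The groups overlapped in both arms for both genes. Sema6b had 35.6 and 55.5 CPM in Sox7 ECKO, against 46.7 and 40.5 CPM in Sox7 control, and 28.3, 95.3 and 64.9 CPM in Sox17 ECKO, against 31.3, 28.9 and 133 CPM in Sox17 control, again overlapping. Sema5a, a semaphorin with thrombospondin repeats, had 6.64 and 4.78 CPM in Sox7 ECKO, against 6.82 and 4.15 CPM in Sox7 control, and 3.85, 13.8 and 15.6 CPM in Sox17 ECKO, against 0, 6.79 and 7.12 CPM in Sox17 control. It was higher in ECKO in all 3 Sox17 sets, with a log2 difference of 1.24 and an SE of 1.63.

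A small group of genes known from leukocytes, singled out after their values were seen, followed a single library. Sema4a, a class 4 semaphorin of immune cells, was read by 385 and 0 counts in Sox7 ECKO, against 2 and 0 counts in Sox7 control, and by none in any Sox17 library. Sema4d, the ligand of plexin B1, had 31.6 and 0 CPM in Sox7 ECKO, against 1.68 and 0 CPM in Sox7 control. Plxnc1, the receptor of Sema7a, had 32.8 and 0 CPM in Sox7 ECKO, against 0.120 and 0 CPM in Sox7 control. Nearly all of these counts lay in Sox7 ECKO 1, the library with 13897 CPM of macrophage markers, and Cd72, an immune receptor of Sema4d, had 367 and 0 CPM in Sox7 ECKO, against 14.2 and 0 CPM in Sox7 control. In set 2 the 13 macrophage markers summed to 123 CPM in ECKO and 205 CPM in control, Mrc1 and P2ry12 were at 0 in that ECKO library, and Sema4a, Sema4d and Plxnc1 were at 0 in both libraries. Without Sox7 ECKO 1, Plxnc1 had a fitted log2 difference of −2.72 with an SE of 4.30. Sema4b did not share that pattern: it had 8.95 and 6.10 CPM in Sox7 ECKO (62 and 46 counts), against 0.718 and 0.184 CPM in Sox7 control (6 and 2 counts), higher in both sets, with a fitted log2 difference of 4.03 and an SE of 3.29. In the Sox17 arm Sema4d had no count in the 3 ECKO libraries, against 0, 5.85 and 0.433 CPM in control. With the floor of 3 counts averaged over the ECKO libraries this is at least 7.22-fold lower in mean. That rests on Sox17 control 2, without which the control mean of 0.217 CPM is below that floor of 0.290 CPM. The 13 macrophage markers summed to 473 CPM in Sox17 control 2, against 228 CPM in Sox17 ECKO 2. Their part in the Sema4d values was not tested.

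**Figure D4:**
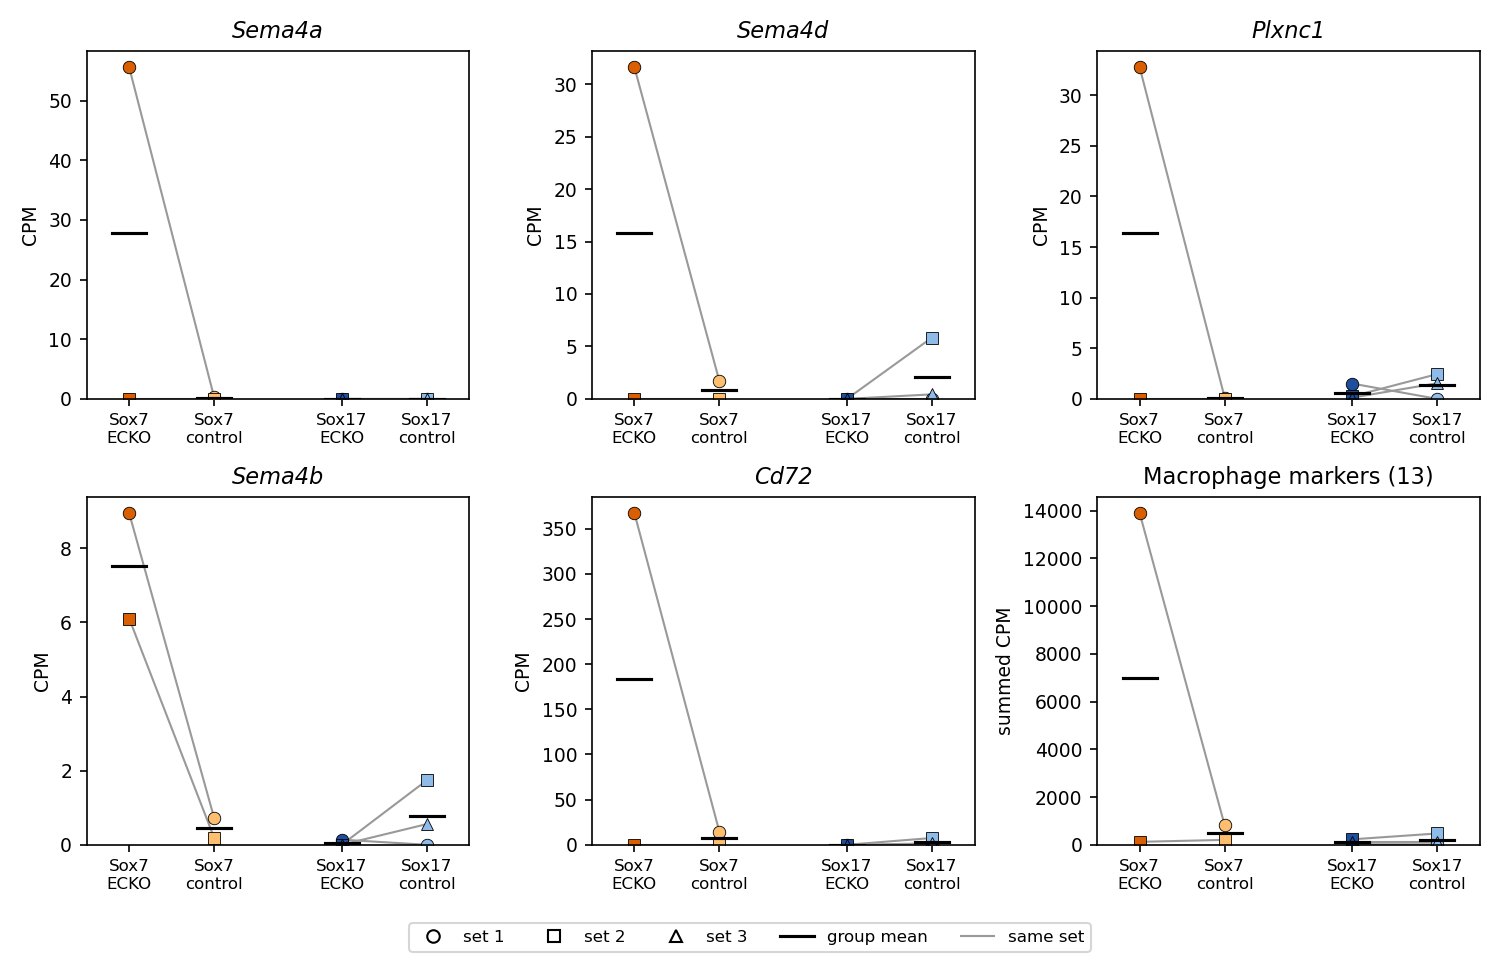
CPM in each library, ECKO left of its control, for Sema4a, Sema4d, Plxnc1, Sema4b and Cd72 and for the sum of 13 macrophage and microglia markers; lines join libraries of a set and black bars are group means. Sox7 ECKO 1 stands alone in every panel but that of Sema4b, where Sox7 ECKO 2 had 6.10 CPM.

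Plexins, the semaphorin receptors, were led by Plxnd1, the endothelial receptor of Sema3e. It was read at 297, 359.9 and 541 CPM in Sox17 ECKO, against 165, 224 and 428 CPM in Sox17 control, higher in ECKO by 0.84, 0.68 and 0.34 on the log2(CPM + 1) scale in sets 1, 2 and 3. The groups overlapped, and the fitted log2 difference was 0.55 (SE 0.41, edgeR unadjusted p = 0.197). Sox7 ECKO libraries had 295 and 347 CPM of it, against 365 and 328 CPM in Sox7 control (−0.11, SE 0.50). Plxna2, a receptor of class 6 semaphorins, was read at 204, 353 and 255 CPM in Sox17 ECKO, against 590.4, 269.6 and 274 CPM in Sox17 control, where the shallow Sox17 control 1 was the highest of the 6. Plxna2 had 158 and 403 CPM in Sox7 ECKO, against 258 and 302 CPM in Sox7 control, with overlap.

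The B-type plexins, receptors of class 4 semaphorins, were less even. Plxnb1 was read at 27.6 and 16.7 CPM in Sox7 ECKO, against 41.7 and 58.6 CPM in Sox7 control, below both controls in each ECKO library (log2 difference −1.18, SE 0.80). Plxnb1 had 12.8, 48.6 and 20.6 CPM in Sox17 ECKO, against 11.8, 41.2 and 51.1 CPM in Sox17 control, with overlap. Plxnb2 was read at 68.4 and 3.98 CPM in Sox7 ECKO, against 24.3 and 55.9 CPM in Sox7 control, so the sets pointed in opposite directions. The Sox17 libraries lay closer together, at 33.8, 25.8 and 25.4 CPM in ECKO, against 11.8, 34.0 and 31.8 CPM in control.

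Of the A-type plexins, Plxna1 was read at 17.2 and 25.2 CPM in Sox7 ECKO, against 11.6 and 12.4 CPM in Sox7 control, above both controls, with a log2 difference of 0.82 and an SE of 1.31. Sox17 ECKO libraries had 6.05, 18.1 and 9.43 CPM of Plxna1, against 2.72, 9.01 and 9.97 CPM in control. Plxna4 was read at 5.63 and 0 CPM in Sox7 ECKO, against 6.70 and 8.85 CPM in Sox7 control, and at 4.95, 15.3 and 0.496 CPM in Sox17 ECKO, against 9.08, 10.8 and 6.69 CPM in Sox17 control. Neither gene differed in the same direction in all 3 Sox17 sets. Plxna3 (chrX:74329066-74344689, plus strand) was not detected in any Sox17 ECKO library, against 3.63, 3.00 and 0.310 CPM in Sox17 control, or 8, 38 and 5 counts. Against the floor of 3 counts averaged over the 3 ECKO libraries it was at least 7.98-fold lower in Sox17 ECKO, with an edgeR unadjusted p of 0.0219. In the Sox7 arm Plxna3 was read at 0.144 and 29.9 CPM in ECKO, against 0 and 7.74 CPM in control, with a large spread between sets.

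Ephrins, membrane ligands that also signal back into their own cell, showed no shared direction in the Sox17 arm (3 of 5 tested higher in ECKO, 2 lower), and 4 of 5 were fitted lower in Sox7 ECKO. Efna1, the main ligand of Epha2, was read at 98.2, 40.6 and 49.1 CPM in Sox17 ECKO, against 38.1, 46.6 and 43.5 CPM in Sox17 control, where only ECKO 1 stood apart. Sox7 ECKO libraries had 30.3 and 101 CPM of Efna1, against 54.7 and 104 CPM in control. Efnb1, a ligand of EphB receptors, was read at 45.9 and 127 CPM in Sox7 ECKO, against 90.5 and 27.9 CPM in Sox7 control, in opposite directions in the 2 sets. Efnb1 had 33.6, 63.9 and 58.1 CPM in Sox17 ECKO, against 24.5, 124 and 35.7 CPM in Sox17 control, with overlap. Efna5, a ligand of EphA receptors, was not detected in Sox7 ECKO, against 47 and 1 counts in Sox7 control. That is at least 6.88-fold lower against the averaged floor, and it rests on Sox7 control 1, without which the control value of 0.0922 CPM is below the floor of 0.416 CPM.

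Of the Eph receptors, which are receptor tyrosine kinases, Epha4, able to bind ephrins of both classes, was read at 9.08, 12.1 and 37.8 CPM in Sox17 ECKO, against 103, 57.7 and 32.9 CPM in Sox17 control (chr1:77367185-77515088, minus strand). The log2(CPM + 1) differences were −3.36 and −2.17 in sets 1 and 2 and 0.20 in set 3. The pericyte sums were 190.2, 208 and 209 CPM in Sox17 ECKO 1, 2 and 3, against 818, 609 and 252 CPM in their controls. In set 3 the sum was lower in ECKO while Epha4 was higher. Of the pericyte markers in that set, Pdgfrb, Kcnj8, Abcc9 and Notch3 were also higher in ECKO, and Rgs5 and Cspg4 were lower. The part of pericyte RNA in the Epha4 values was not tested. The fitted log2 difference was −1.71 (SE 0.64, edgeR unadjusted p = 0.0154) and ranged from −2.60 to −1.22 with a library left out. In the Sox7 arm Epha4 was read at 20.1 and 53.4 CPM in ECKO, against 48.5 and 42.4 CPM in control, with overlap. Epha2, the most evenly read Eph receptor, was lower in ECKO in all 5 sets: 45.6 and 29.1 CPM in Sox7 ECKO, against 54.7 and 38.3 CPM in Sox7 control, and 31.2, 49.6 and 64.6 CPM in Sox17 ECKO, against 55.4, 52.5 and 79.0 CPM in Sox17 control. The gaps were small, with log2 differences of −0.32 (SE 0.58) and −0.36 (SE 0.47), and the groups overlapped. Ephb1 (chr9:101922128-102354693, minus strand), whose promoter is printed above, had no count in either Sox7 ECKO library, against 4.91 and 9.31 CPM in Sox7 control (41 and 101 counts). It was at least 17.1-fold lower in Sox7 ECKO against the averaged floor, with an edgeR unadjusted p of 0.0297. Ephb1 had 5.50, 3.02 and 0 CPM in Sox17 ECKO, against 9.53, 1.74 and 2.17 CPM in Sox17 control, with overlap. The gene 9630041A04Rik lies on the opposite strand within the last 2000 bases of Ephb1, and the strand setting of the counting was not given, so tags of that overlap are uncertain. An antisense transcript overlaps the end of Plxna1 in the same way.

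Robo4, the endothelial Robo receptor, known to stabilise vessels, had nearly equal means in the Sox7 arm. It was read at 107 and 277 CPM in Sox7 ECKO, against 172 and 214 CPM in Sox7 control, with means of 192 ± 121 and 193 ± 29.6 CPM (SD, n = 2 each). Robo4 had 213, 315 and 149 CPM in Sox17 ECKO, against 194, 338 and 235 CPM in Sox17 control (log2 difference −0.18, SE 0.43). The groups overlapped in both arms. Slit2, a secreted Robo ligand singled out after its values were seen, had 11.3 and 6.37 CPM in Sox7 ECKO, against 16.3 and 0 CPM in Sox7 control, and 0, 10.9 and 3.72 CPM in Sox17 ECKO, against 0, 0 and 9.17 CPM in Sox17 control.

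Ntn1 (chr11:68209364-68400823, minus strand), a secreted laminin-related ligand of DCC and Unc5 receptors, was lower in every ECKO library than in any control library of its own arm. It was read at 17.1, 10.3 and 12.7 CPM in Sox17 ECKO, against 49.0, 28.9 and 30.4 CPM in Sox17 control. The means were 13.3 ± 3.43 CPM in Sox17 ECKO and 36.1 ± 11.2 CPM in Sox17 control (SD, n = 3 each), a log2 difference of −1.43 (SE 0.68) with an edgeR unadjusted p of 0.0498. With the set number as a block the log2 difference was −1.42, with an edgeR unadjusted p of 0.0706. With a library left out it ranged from −1.66 to −1.17. The set differences were −1.47, −1.40 and −1.20 on the log2(CPM + 1) scale. Those of the pericyte marker Rgs5 were −2.78, −1.81 and −1.23, but Pdgfrb, Kcnj8, Abcc9 and Notch3 were higher in ECKO in set 3. Pericyte marker sums in Sox7 ECKO 1 and 2 were 293 and 545 CPM, against 354 and 253 CPM in their controls. The part of pericyte RNA in the Ntn1 values was not tested in either arm. In the Sox7 arm Ntn1 was read at 12.6 and 11.9 CPM in ECKO, against 16.5 and 42.8 CPM in control (log2 difference −1.27, SE 0.83). That gap rests on Sox7 control 2, without which the log2 difference was −0.43. The difference between the arms was 0.16 (SE 1.06).

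The netrin receptors on the list were rare. Unc5c was read by 10 and 113 counts in Sox7 ECKO, against 1 and 0 counts in Sox7 control. The ratio of summed counts, scaled for library size, was 163, with an exact 95% counting interval of 28.8 to 6501 that covers counting error and not the spread between libraries. Of the 123 ECKO counts 113 were in Sox7 ECKO 2, and without that library the ratio was 27.7 (interval 3.94 to 1203). Unc5c had 3.58, 0.113 and 0 CPM in Sox17 ECKO, against 3.18, 0.158 and 2.85 CPM in Sox17 control. Unc5a, singled out after its values were seen, had 5.64, 9.71 and 1.99 CPM in Sox17 ECKO, against 0, 0 and 5.57 CPM in Sox17 control. No direction held in all sets of the Sox17 arm for either.

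Among genes that work with these ligands and receptors, none passed an adjusted p of 0.05 by edgeR. Of 13 co-receptors and other guidance receptors or ligands, 10 were tested: 6 were fitted higher and 4 lower in Sox7 ECKO (median log2 difference 0.29), and 4 higher and 6 lower in Sox17 ECKO (median −0.66), with none at an unadjusted p below 0.05. The neuropilin Nrp1, co-receptor of class 3 semaphorins and VEGF, was read at 403, 363 and 282 CPM in Sox17 ECKO, against 782, 509 and 319.9 CPM in Sox17 control, lower in ECKO in each set (−0.62, SE 0.40). In the Sox7 arm its log2 difference was −0.02 (SE 0.49). Of 33 intracellular signalling genes, 29 were tested: 14 were fitted higher and 15 lower in Sox7 ECKO (median −0.07), and 13 higher and 16 lower in Sox17 ECKO (median −0.13). At an unadjusted p below 0.05 edgeR gave Ngef (higher) and Dpysl3 (lower) in Sox7 ECKO and Ablim1 (lower) in Sox17 ECKO. That is 6.90% and 3.45% of the 29, against 1.5% and 3.52% of all genes. Ngef rests mostly on Sox7 ECKO 2, with 4 and 145 counts in Sox7 ECKO 1 and 2, against 0 in both controls. Dpysl3 had 72 and 1 counts in Sox7 ECKO 1 and 2, against 190 and 274 counts in Sox7 control. Ablim1, an actin-binding protein whose worm relative acts in netrin signalling, was read at 243, 198 and 324 CPM in Sox17 ECKO, against 734, 548 and 351 CPM in Sox17 control, below every control in each ECKO library (−1.09, SE 0.40). The 4 vascular guidance genes that the choice by symbol left out, Sema3g, Efnb2, Ephb4 and Unc5b, were all tested: 0 were fitted higher and 4 lower in Sox7 ECKO, and 1 higher and 3 lower in Sox17 ECKO.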

How the data were processed

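Libraries were made from total RNA with the Lexogen QuantSeq kit, which reads 1 tag near a transcript's 3′ end, per the labels' protocols; no molecular identifiers are mentioned. The authors deposited raw counts, whole numbers listed by gene symbol, in 1 file per library. Bowtie2, edgeR and the build mm10 are named in the submitters' processing notes without version or role; the annotation, counting tool and strand setting are not given in the sources used here. The 1183 symbols listed only for the Sox17 arm, all starting with Mir, were left out.

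Counts were fitted in R 4.3.3 with edgeR 4.0.16 (robust quasi-likelihood, TMM scaling, filterByExpr) over all 10 libraries with a mean per group, leaving 6 residual degrees of freedom and a common biological coefficient of variation of 0.989. Of 23238 symbols, 10198 were removed and 13040 tested, with Benjamini-Hochberg adjustment over all of them and a threshold of 0.05. SE is the size of the log2 difference over the square root of F. Differences within a set use log2(CPM + 1), a pseudocount of 1. The test was tried on simulated data first.

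The members and lists were chosen with earlier results of these data known. Values in every library are given for the 20 members with the highest mean CPM, for the 5 tested members with the smallest p among those with 1 direction in every set of an arm, and for any with an adjusted p below 0.05 (none). Other guidance and marker genes given with values fall outside these rules and were picked with their values known. Among them are Sema4b, Cd72, Nrp1, Ablim1, Rgs5 and Cspg4.

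ECKO and control libraries of the same number form a set. Run labels shared within the set in the sample descriptions tie 4 of the 5 sets, and the set number was therefore read as a pairing. Deviations of paired libraries from their group means correlated at 0.193 in the Sox7 arm and at 0.12, 0.0911 and 0.0896 in Sox17 sets 1 to 3. The labels do not say that libraries came from separate mice, so p-values measure the spread between these libraries, which may be technical. Alternatives were the replicate block, RLE size factors, no filter, DESeq2 1.42.0, limma-voom (limma 3.58.1), only the arm compared, Rn45s (ribosomal RNA precursor, 3.93% to 28.8% of counts) left out, and each library left out. Gene positions are from GENCODE vM21 on GRCm38 and promoters from RefSeq on GRCm38.p6.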

Additional observations from a re-analysis of the deposited data

How the results depend on the processing

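Under every setting run, no guidance gene passed an adjusted p of 0.05; the lowest was 0.102, for Sema3c in the Sox17 comparison with no filter on low counts. For all genes, the number called was 0 in each comparison in the fit reported, and 0 with RLE size factors, limma-voom, only the arm compared or Rn45s left out. With the replicate block, 1 gene was called in the Sox7 comparison, 6 in the Sox17 comparison and 3 in the difference between arms. With no filter the numbers were 58, 30 and 58, and with DESeq2 they were 3, 29 and 14. With single libraries left out they ranged from 0 to 14 (14 without Sox7 ECKO 1), from 0 to 1, and from 0 to 9. With single libraries left out, the guidance genes' median log2 difference ranged from −0.39 to 0 in the Sox7 comparison and from −0.28 to 0.04 in the Sox17 comparison; with only the arm compared the Sox17 median was 0.084. The causes were not tested. Directions turned only for log2 differences smaller than their SE. In the Sox7 comparison, Plxna2 was −0.14 with the replicate block, −0.0081 with no filter, −0.14 with limma-voom and −0.020 with only that arm. Sema6a was −0.055, −0.0029, −0.047 and −0.014 under the same settings, and Robo4 was 0.011 with RLE size factors and with DESeq2. In the Sox17 comparison the block gave Efnb1 0.068, Sema6b 0.16 and Efna5 −0.58. Sema7a was −0.00068 with RLE size factors, −0.0034 with no filter, −0.00073 with DESeq2 and −0.023 with limma-voom, which also gave Sema6b 0.046, Plxnb2 −0.17 and Efna5 −0.00035. The replicate block changed no other call among the guidance genes. With a library left out, log2 differences that changed sign ranged as follows in the Sox7 comparison: Efna1 −1.39 to 0.33, Efnb1 −0.37 to 1.61, Epha4 −1.18 to 0.20, Plxna2 −0.83 to 0.50, Plxna3 −4.65 to 10.44, Plxnb2 −3.35 to 0.77, Robo4 −0.86 to 0.49, Sema3c −1.33 to 0.20, Sema5a −0.26 to 0.43, Sema6a −0.51 to 0.36, Sema6b −0.29 to 0.32, Sema6d −0.67 to 0.13, Sema7a −1.40 to 0.30. In the Sox17 comparison they were: Efna5 −0.58 to 2.34, Efnb1 −0.63 to 0.77, Ephb1 −1.53 to 0.52, Plxna4 −1.70 to 0.20, Plxnb1 −1.06 to 0.037, Plxnb2 −0.23 to 0.36, Robo4 −0.50 to 0.063, Sema4c −0.057 to 0.83, Sema6a −0.14 to 0.29, Sema6b −0.47 to 1.06, Sema6d −0.26 to 0.34, Sema7a −0.31 to 0.30. In the difference between arms Ntn1 ranged from −0.37 to 1.00. Counts of guidance genes whose groups did not overlap, under scalings added after seeing the data, moved only in the Sox7 arm. With total counts they were 3 above and 10 below, and the share of all genes was not counted under that scaling. Without Sox7 ECKO 1, also added later, they were 12 and 12 (31.6% each, background 29.5% and 33.8%). That count sets a single ECKO library against both controls, so it is not comparable with the count from both ECKO libraries. Depth limits the rarer genes: 3 counts are 1.36 CPM in Sox17 control 1, and 20 of the 38 tested genes were at 0 in some library.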
